A study of Mus musculus with 9 samples.

Results

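The genes described here encode the glucuronosyltransferases (UGTs) and sulfotransferases (SULTs) of the mouse liver, and they were chosen by symbol alone, as every gene named Ugt1 to Ugt3 or Sult1 to Sult6 with a subfamily letter and a member number. There were 38 of them among the 17305 genes of the table, 20 UGT and 18 SULT genes. The liver RNA came from 9 male Balb/c mice, bought at 8 weeks of age, all of which had received CCl4, a hepatotoxin that causes fibrosis on repeated injection, until week 8. The 3 mice of the NC + CCl4 group also received AAV8-NC, an adeno-associated virus with a negative control, and in the other two groups of 3 mice AAV8, a serotype that reaches hepatocytes well, carried an shRNA against the long noncoding RNA lnc-Helf (shRNA1# in lnc-Helf-sh1# + CCl4, shRNA2# in lnc-Helf-sh2# + CCl4). The sample labels place the tail vein injection 4 weeks after the first CCl4 dose, at 1e+12 pfu per mouse, whereas the methods of the study give an earlier injection and a lower dose. The comparisons ask how silencing of lnc-Helf changed the RNA of livers under CCl4, and since every mouse had CCl4 and virus, they say nothing about a liver without either.

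UGTs sit in the endoplasmic reticulum and join glucuronic acid, taken from UDP-glucuronic acid, to bilirubin, bile acids, steroids, hormones and drugs, which makes these compounds soluble enough to leave in bile or urine. SULTs work in the cytosol and transfer a sulfonate group from the cofactor PAPS to phenols, catecholamines, thyroid hormones, oestrogens, hydroxysteroids and bile acids. The hepatocyte is the main site of both reactions, and the genes are known to respond to nuclear receptors such as CAR (Nr1i3), PXR (Nr1i2) and PPAR alpha (Ppara) and to the Ah receptor (Ahr).

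The Ugt1a genes form 1 locus in which separate first exons, each with its own promoter, are spliced to a common set of later exons, so that the members share the end of their transcripts. The promoters are shown because the members of this locus differed from each other in these livers. Each line gives the 150 bases before the RefSeq start of the gene (RefSeq, GRCm38.p6), and capitals are kept for GCGTG or its reverse complement CACGC, the core motif of the Ah receptor. The windows are chr1:88094851-88095000 (Ugt1a7c), chr1:88211809-88211958 (Ugt1a1), chr1:88134659-88134808 (Ugt1a6a), chr1:88070629-88070778 (Ugt1a9) and chr1:88165862-88166011 (Ugt1a5), all on the plus strand.
Ugt1a7c: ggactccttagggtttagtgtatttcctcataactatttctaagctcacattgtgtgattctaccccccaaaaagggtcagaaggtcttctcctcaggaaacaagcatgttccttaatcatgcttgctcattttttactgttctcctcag
Ugt1a1: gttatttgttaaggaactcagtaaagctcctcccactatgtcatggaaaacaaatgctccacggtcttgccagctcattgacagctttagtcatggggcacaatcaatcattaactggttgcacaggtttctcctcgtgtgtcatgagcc
Ugt1a6a: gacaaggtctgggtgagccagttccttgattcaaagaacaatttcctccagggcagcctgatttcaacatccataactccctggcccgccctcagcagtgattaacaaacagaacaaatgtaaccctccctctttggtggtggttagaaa
Ugt1a9: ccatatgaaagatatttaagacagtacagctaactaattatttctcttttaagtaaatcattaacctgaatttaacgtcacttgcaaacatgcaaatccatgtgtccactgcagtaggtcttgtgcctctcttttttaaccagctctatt
Ugt1a5: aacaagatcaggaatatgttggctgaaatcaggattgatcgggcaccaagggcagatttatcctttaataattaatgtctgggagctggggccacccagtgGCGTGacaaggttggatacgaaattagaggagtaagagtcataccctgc
The Ugt1a5 window held the motif once, and those of Ugt1a7c, Ugt1a1, Ugt1a6a and Ugt1a9 stand in lower case because they did not hold it. In global alignments the Ugt1a7c window was identical to those of Ugt1a1, Ugt1a6a and Ugt1a9 at 50.3% to 53.8% of aligned positions and to that of Ugt1a5 at 45.9%. Unrelated windows were not aligned, so these values have no background and do not show similarity. Of the 38 members, 32 matched a promoter in the RefSeq table, and GCGTG was found, on either strand, in 14.3% of their 35 windows of 250 bases before to 50 bases after the start, against 32.4% of the 32851 windows of all genes. Of the other motifs searched on both strands, TTCNNNGAA (STAT5) was in 5.71% of the member windows against 8.30% of all, and TGACNNNGC (antioxidant response) in 0 of 35 against 12.4%. The motifs were searched separately, the members of a cluster share sequence, and a match does not show that a factor binds there. The windows of all genes were not matched to the member windows in base composition. The shares therefore do not show that a motif is depleted in the members.

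The Ugt2b genes, which encode enzymes for steroids, bile acids and many drugs, are separate genes side by side on chromosome 5. The windows of Ugt2b35, Ugt2b36 and Ugt2b5 are shown because DESeq2, the second count test run beside edgeR, called these 3 members higher with shRNA1#. They lie at chr5:87000710-87000859 on the plus strand (Ugt2b35), chr5:87092556-87092705 on the minus strand (Ugt2b36) and chr5:87140341-87140490 on the minus strand (Ugt2b5).
Ugt2b35: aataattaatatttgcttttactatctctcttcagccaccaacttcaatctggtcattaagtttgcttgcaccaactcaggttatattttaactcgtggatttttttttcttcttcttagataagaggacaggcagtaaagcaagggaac
Ugt2b36: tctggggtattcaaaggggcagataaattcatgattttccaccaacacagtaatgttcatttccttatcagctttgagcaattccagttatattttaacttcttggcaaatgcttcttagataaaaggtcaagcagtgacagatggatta
Ugt2b5: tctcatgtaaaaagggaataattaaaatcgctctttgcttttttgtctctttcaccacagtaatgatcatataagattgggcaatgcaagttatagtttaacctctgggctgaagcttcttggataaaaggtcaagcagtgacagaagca
None of the 3 windows held GCGTG on either strand. Ugt2b36 and Ugt2b5 were identical at 67.5% of aligned positions, Ugt2b35 and Ugt2b36 at 58.7%, and Ugt2b35 and Ugt2b5 at 57.5%, again without unrelated windows for comparison.

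The libraries held 14265875 to 16816431 expected counts, which are the authors' RSEM estimates of reads per gene. Alb, the defining hepatocyte transcript, took 6.81% to 12.4% of them. On the first principal component, which held 33.8% of the variance, the NC + CCl4 libraries lay at -37.8 to -27.6 and the shRNA libraries at 14.7 to 29.4, except shRNA1# replicate 3 at -15.9. The table has no row named lnc-Helf, but both shRNA targets lie in a retained-intron transcript of Fmo2 in GENCODE M21, and Fmo2 measured 227, 202 and 265 CPM (counts scaled to an equal library size) in NC + CCl4, 109, 122 and 104 in lnc-Helf-sh1# + CCl4 and 174, 142 and 88.2 in lnc-Helf-sh2# + CCl4. All 6 shRNA libraries lay under the 3 controls, with adjusted p values of 0.144 and 0.0528 from edgeR and of 0.000979 and 0.00911 from DESeq2, and its value does not measure lnc-Helf alone.

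Levels were compared between genes as TPM, the authors' transcript share scaled for length and library size, and between groups as CPM scaled by TMM factors, which account for library size and composition. In the 3 NC + CCl4 livers the highest member was Sult1a1, the main phenol sulfotransferase, with a mean of 588 TPM. Ugt2b36 followed at 575 TPM and Ugt2b5 at 474 TPM. Sult1a1 and Ugt2b36 overlapped between libraries, whereas Ugt2b36 lay above Ugt2b5, and Ugt2b5 above Ugt2b34, in all 3 libraries without overlap.

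The next members were Ugt2b34 at 306 TPM, Ugt1a1, the bilirubin-conjugating enzyme, at 278 TPM, Ugt2b1 at 253 TPM, Ugt3a2 at 226 TPM and Ugt1a6b at 221 TPM. Each of these 5 overlapped its neighbour in the order. Sult2a8, of the hydroxysteroid sulfotransferase family, stood at 151 TPM, Ugt2a3 at 133 TPM and Sult1d1, which acts on catecholamines, at 130 TPM, again with overlap. Ugt2b35 was at 91.9 TPM, Ugt1a6a at 72.2 TPM, Ugt3a1 at 54.8 TPM, Ugt1a9 at 42.1 TPM and Sult1b1, a thyroid hormone sulfotransferase, at 38.2 TPM. Ugt1a5 lay clear of its neighbours on both sides at 16.5 TPM, and the remaining tested members, among them Ugt1a7c at 5.97 TPM, were lower. In sum, the 20 UGT genes took 0.261% to 0.299% of all TPM in NC + CCl4 livers and the 18 SULT genes 0.0875% to 0.101%.

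**Figure D1:**
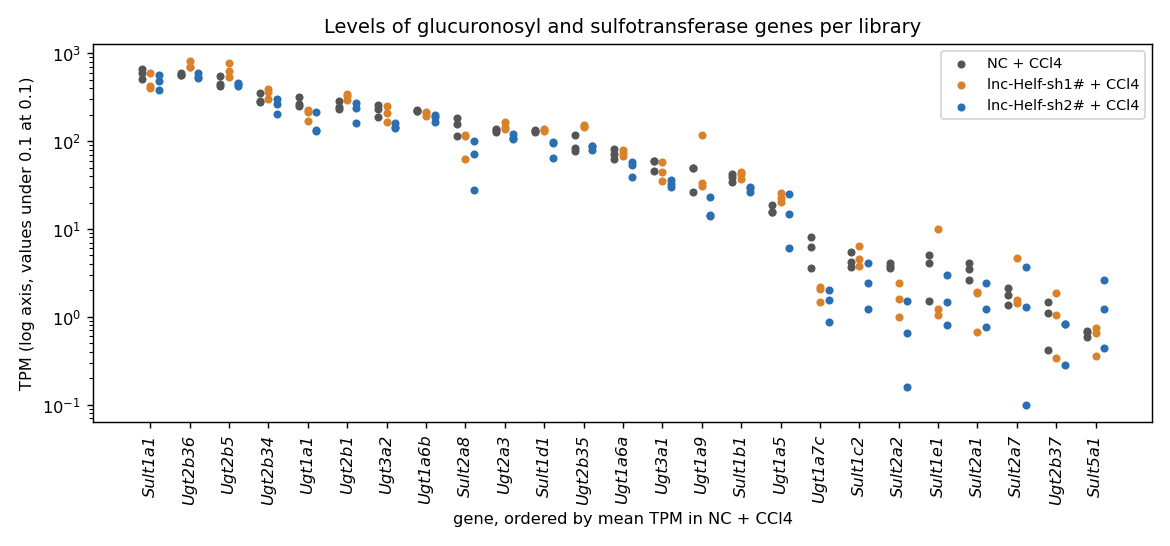
TPM (log axis, values under 0.1 drawn at 0.1) of the 25 members with the highest mean TPM in NC + CCl4, 1 point per library and 1 colour per group, genes on the horizontal axis in order of that mean. Levels ran from 588 TPM for Sult1a1 down to under 1 TPM, and within most genes the 3 groups lay close together on this scale.

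Of the 38 members, 25 (16 UGT and 9 SULT genes) had enough counts to be tested in the model fitted over 13059 genes. The 13 others were Sult2a3, Sult2a5, Sult2a6, Sult2b1, Sult3a1, Sult4a1, Sult5a1, Sult6b1, Sult6b2, Ugt1a2, Ugt2a1, Ugt2a2 and Ugt2b38. Of these, 10 never passed 7 counts in a library. Sult2a5 reached 8.38 expected counts, Ugt2b38 reached 25.2 in NC + CCl4 replicate 2 and Sult5a1 reached 28 in shRNA2# replicate 3. Sult3a1, which is known as a female-predominant liver gene in mice, had 1 count in each NC + CCl4 library and 0 in all 6 shRNA libraries, a difference that cannot be detected at this depth. These 13 members received no fold change and no test.

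With shRNA1#, no member passed an adjusted p of 0.05 in edgeR's quasi-likelihood test, in either direction or past a fold of 2, and neither did any other gene (0% of 13059). The median log2 fold change of the 25 tested members was 0.22, against 0.02 over all genes tested, with 17 members positive and 8 negative. At an unadjusted p of 0.05, edgeR counted 4 members higher (Ugt2b35, Ugt2b36, Ugt2b5 and Ugt2a3) and 2 lower (Ugt1a7c and Sult2a1), against 7.94% of all genes higher, 9.95% lower and 17.9% in either direction. In 7 members all 3 lnc-Helf-sh1# + CCl4 libraries lay above all 3 NC + CCl4 libraries and in 3 they lay below, a share that is to be read against 15.6% higher, 12.9% lower and 28.5% in either direction over all genes. DESeq2 called 4 members, Ugt2b35, Ugt2b36 and Ugt2b5 higher and Ugt1a7c lower, against 0.773% of genes higher, 2.21% lower and 2.98% in either direction.

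With shRNA2#, 2 of the 25 members fell in edgeR, Ugt1a7c and Sult2a2, both by more than 2-fold, and 0 rose. Over all genes tested, 8.60% were called in either direction, 4.71% higher and 3.89% lower, and 2.21% were called with a fold above 2. The 2 called members were 8% of the 25, near the share of all genes called in either direction and above the shares called lower or with a fold above 2. The whole comparison rested on single libraries, since edgeR called 1123 genes with all 9 libraries, 171 when shRNA1# replicate 2 was left out, and 0 when shRNA2# replicate 2 or either the first or the third control library was left out. The median log2 fold change of the members was -0.34, against 0.00 over all genes, with 6 members positive and 19 negative. At an unadjusted p of 0.05, edgeR counted 0 members higher and 4 lower, the others being Ugt3a1 and Ugt1a1, against 16.3% of all genes higher, 14.9% lower and 31.2% in either direction. The groups did not overlap for 1 member that was higher (Ugt2b36) and 4 that were lower (Ugt1a7c, Sult2a2, Ugt3a1 and Sult1d1), against 16.8% higher, 16.1% lower and 32.9% in either direction. DESeq2 called 3 members lower, Ugt1a7c, Sult2a2 and Ugt3a1, against 8.39% of genes higher, 7.58% lower and 16.0% in either direction.

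Between the shRNAs, edgeR called 0 members and 0% of all genes, with 10 members lower and 0 higher with shRNA2# at an unadjusted p of 0.05, against 5.26% of genes lower, 5.19% higher and 10.5% in either direction. The 10 were Ugt2b35, Ugt2b36, Ugt2b5, Ugt2a3, Ugt1a9, Ugt1a6a, Ugt3a1, Sult1b1, Sult1d1 and Sult1c2. The lnc-Helf-sh2# + CCl4 libraries lay below all lnc-Helf-sh1# + CCl4 libraries in 6 of the 25 and above them in 0, against 7.14% of genes lower, 7.02% higher and 14.2% in either direction. The log2 fold change was negative in 23 of the 25, with a median of -0.41. Over all 13059 genes it was negative in 6474, with a median of 0.003. The members were measured in the same livers and are not separate observations. DESeq2 gave an adjusted p to only 7236 genes in this comparison. Ugt1a7c, Ugt1a10, Ugt2b37, Sult1c2, Sult1e1, Sult2a1, Sult2a2 and Sult2a7 were not among them. It called 1 member, Ugt2b35, lower, against 0.470% of those genes lower, 0.456% higher and 0.926% in either direction.

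The scale mattered most for shRNA2#, where 6 members were positive and 19 negative with TMM, RLE and upper quartile factors alike. On log2(TPM + 1), the median gene moved by -0.14 relative to the TMM-scaled values with shRNA1# and by -0.22 with shRNA2#, and all 25 members were then negative with shRNA2#, 22 of them below the median of all genes. Ugt1a1, Ugt1a6a, Ugt1a6b, Ugt1a9, Ugt2a3, Ugt3a2, Sult1b1, Sult2a1 and Sult2a8 overlapped the controls with shRNA2# in CPM. In TPM, their shRNA2# libraries lay below all controls. The share of all genes that did so was not counted, and this holds for every comparison of TPM between groups below. On log2(TPM + 1) the median of all genes was itself negative, at -0.10 with shRNA1# and -0.18 with shRNA2#. For Ugt2b36, which lay above the controls in CPM, the shRNA2# libraries overlapped them in TPM. With shRNA1#, 14 members were positive on log2(TPM + 1) against 17 with TMM factors, and between the shRNAs 24 were negative against 23. In bulk tissue, fewer cells of a type and less RNA per cell cannot be told apart.

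**Figure D2:**
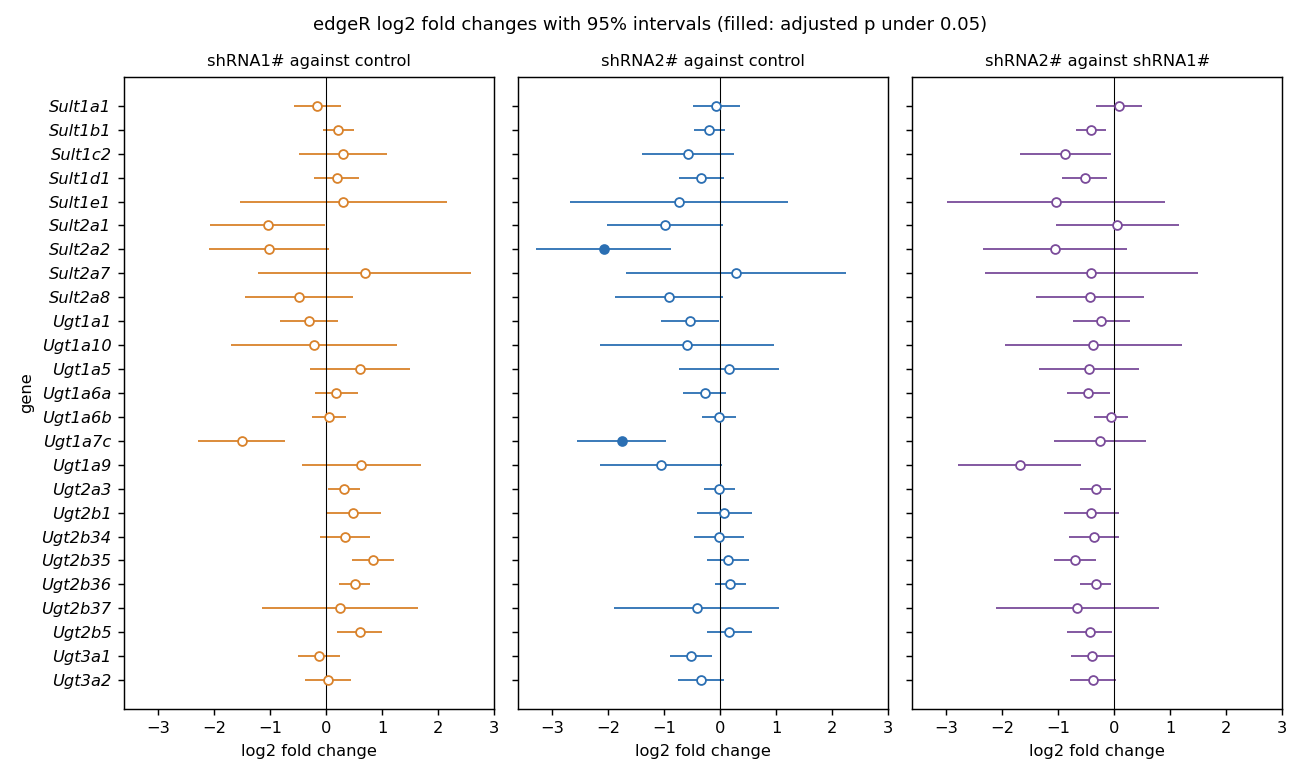
edgeR log2 fold change (point) with its 95% interval (line) for the 25 tested members, in 3 panels for shRNA1# against NC + CCl4, shRNA2# against NC + CCl4, and shRNA2# against shRNA1#; filled points have an adjusted p under 0.05. The filled points are Ugt1a7c and Sult2a2 with shRNA2#, and in the panel of the shRNAs against each other 23 of 25 points lie left of 0.

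Ugt1a7c, whose human counterpart UGT1A7 conjugates phenolic metabolites of aromatic hydrocarbons, showed the lowest adjusted p of the members. It was at 11.7, 6.44 and 14.1 CPM in NC + CCl4, at 3.01, 4.13 and 4.17 CPM in lnc-Helf-sh1# + CCl4 and at 3.12, 1.86 and 4.57 CPM in lnc-Helf-sh2# + CCl4. Every control library lay above every shRNA library. With shRNA2# the gene fell by 1.76 on the log2 scale (standard error, SE, 0.36, edgeR adjusted p = 0.0303) and with shRNA1# its log2 fold change was -1.51 (SE 0.35, edgeR adjusted p = 0.144, DESeq2 adjusted p = 0.00563). The difference between the shRNAs was -0.25 (95% interval -1.07 to 0.57). The shRNA2# call was lost in edgeR without NC + CCl4 replicate 1 (adjusted p = 0.0784), NC + CCl4 replicate 3 (0.105), shRNA1# replicate 2 (0.0543) or shRNA2# replicate 2 (0.0900), with log2 fold changes of -2.13 to -1.49 over all single omissions.

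The division of reads within the locus is uncertain, since 54.2% of the distinct 50-base words in the GENCODE M21 transcripts of Ugt1a7c also occur in another gene, mostly in Ugt1a6a, and the reads were 50 bases long. For Ugt1a6a this share was 96.0%, for Ugt1a6b 79.8% and for Ugt1a1 58.2%. The sum over the Ugt1a genes, which does not depend on that division, was 1012, 988 and 1015 CPM in NC + CCl4, 890, 1010 and 1057 CPM in lnc-Helf-sh1# + CCl4 and 641, 716 and 999 CPM in lnc-Helf-sh2# + CCl4. Both shRNA groups overlapped the controls in CPM, with log2 fold changes of -0.03 and -0.36 (edgeR adjusted p = 0.951 and 0.193). In TPM, the sum was 623.5 to 655.5 in NC + CCl4. It lay below that with shRNA1# (509 to 618.2) and shRNA2# (380.9 to 505.4). Unlike the CPM sum, the TPM sum depends on the division of reads, since each gene is scaled by its own length. The median of all genes was also lower in TPM with both shRNAs.

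Within the locus, Ugt1a1 took the largest part of the expected counts in all 9 libraries except shRNA2# replicate 2, where Ugt1a6b was ahead. Ugt1a7c made up 1.15%, 0.653% and 1.39% of the locus in NC + CCl4 and 0.256% to 0.483% in the 6 shRNA libraries, without overlap. Ugt1a5 made up 2.62% to 3.29% in NC + CCl4 and 4.34% to 4.58% in lnc-Helf-sh1# + CCl4, while the lnc-Helf-sh2# + CCl4 libraries spread from 1.73% to 5.60%.

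**Figure D3:**
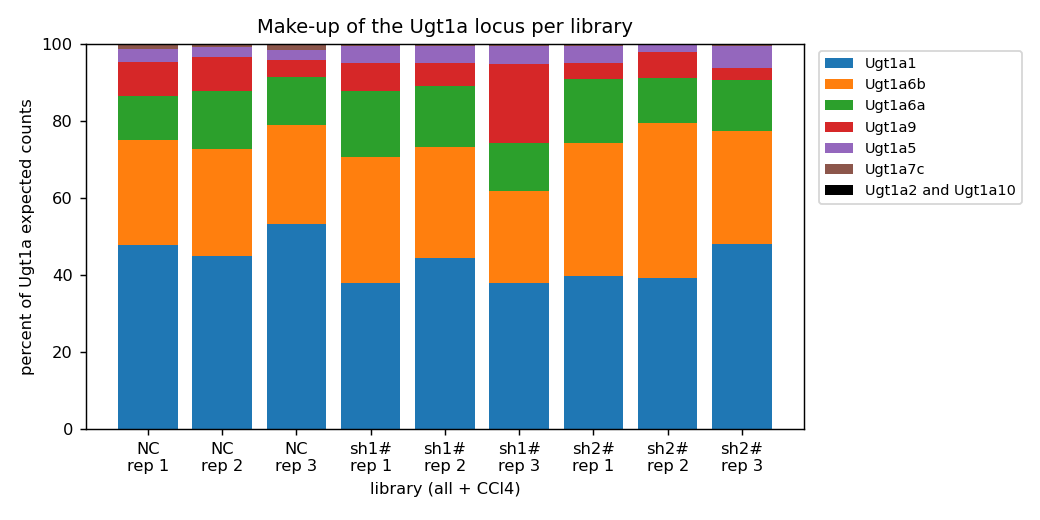
Percent of the expected counts of the Ugt1a locus assigned to each member (stacked bars) in each of the 9 libraries. Ugt1a9 reaches 20.7% in shRNA1# replicate 3 against 3.22% to 8.93% elsewhere, and the thin Ugt1a7c layer is largest in the NC + CCl4 libraries.

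Ugt1a1 was at 483, 445 and 542 CPM in NC + CCl4, at 337, 450 and 401 CPM in lnc-Helf-sh1# + CCl4 and at 254, 281 and 479 CPM in lnc-Helf-sh2# + CCl4. In CPM, the third lnc-Helf-sh2# + CCl4 library lay among the controls and the others well under them. In TPM, every shRNA library lay under every control. The TPM values were 266.3, 253.8 and 314.8 in NC + CCl4, 168.8, 227.8 and 212.4 with shRNA1# and 131.7, 135.5 and 215.6 with shRNA2#. Against the controls the log2 fold changes were -0.31 (SE 0.23, edgeR adjusted p = 0.499) with shRNA1# and -0.54 (SE 0.23, edgeR adjusted p = 0.148) with shRNA2#. Without shRNA2# replicate 3 the latter was -0.89, with an adjusted p of 0.0364 from edgeR.

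Ugt1a6a, an enzyme for small phenols, was at 116, 148 and 127 CPM in NC + CCl4, at 151, 161 and 131 CPM in lnc-Helf-sh1# + CCl4 and at 106, 83.8 and 133 CPM in lnc-Helf-sh2# + CCl4. All 3 groups overlapped in CPM. In TPM, the shRNA2# libraries, at 53.47, 39.52 and 58.27, lay below the controls, at 62.57, 82.35 and 71.79. The 2 shRNA groups differed by -0.46 (SE 0.17, edgeR adjusted p = 0.460). Its close copy Ugt1a6b was at 222 to 294 CPM in the 9 libraries, with log2 fold changes of 0.04 and -0.01 against the controls. In TPM, Ugt1a6b was at 218 to 225 in NC + CCl4. It lay below that with shRNA1# (193 to 212) and shRNA2# (165 to 200).

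Ugt1a9, whose human counterpart conjugates propofol and other phenols, depended on a single library. It was at 90.4, 87.0 and 45.2 CPM in NC + CCl4, at 65.6, 60.0 and 219 CPM in lnc-Helf-sh1# + CCl4 and at 26.7, 47.8 and 32.2 CPM in lnc-Helf-sh2# + CCl4. The high value belongs to shRNA1# replicate 3, the library that also stood apart on the first principal component. The log2 fold change with shRNA1# was 0.63 (SE 0.48) and turned to -0.24 without that library. With shRNA2# it was -1.06 (SE 0.49, edgeR adjusted p = 0.168, and 0.0435 without that library).

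Ugt1a5 was at 33.3, 26.8 and 26.6 CPM in NC + CCl4, at 39.9, 43.9 and 48.4 CPM in lnc-Helf-sh1# + CCl4 and at 28.7, 12.3 and 55.9 CPM in lnc-Helf-sh2# + CCl4. The shRNA1# libraries all lay above the controls and the shRNA2# libraries on both sides of them. With shRNA1# the log2 fold change was 0.61 (SE 0.40, edgeR adjusted p = 0.437). Ugt1a10 stayed at or under 0.88 CPM in every library.

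The 6 tested Ugt2b members all had positive log2 fold changes with shRNA1# on the TMM, RLE, upper quartile and TPM scales, although none passed edgeR's threshold. Ugt2b35 was at 156, 212 and 138 CPM in NC + CCl4, at 299.9, 303 and 301 CPM in lnc-Helf-sh1# + CCl4 and at 160, 192 and 205 CPM in lnc-Helf-sh2# + CCl4. The 3 shRNA1# libraries were nearly equal and lay above all others, while the shRNA2# libraries lay within the range of the controls. The log2 fold change was 0.84 with shRNA1# (SE 0.17, edgeR adjusted p = 0.124, DESeq2 adjusted p = 0.00118) and 0.14 with shRNA2# (95% interval -0.23 to 0.51). The shRNAs differed from each other by -0.70 (SE 0.17, edgeR adjusted p = 0.377, DESeq2 adjusted p = 0.0203). Only 0.212% of the 50-base words of Ugt2b35 occur in another gene, so its reads were rarely ambiguous.

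Ugt2b36 was at 580 (replicate 1), 587 and 540.0 CPM in NC + CCl4, at 783, 902 and 744 CPM in lnc-Helf-sh1# + CCl4 and at 650, 634 and 654 CPM in lnc-Helf-sh2# + CCl4. The 3 groups were fully separated, with shRNA2# between the controls and shRNA1#. Its log2 fold change was 0.51 with shRNA1# (SE 0.12, edgeR adjusted p = 0.152, DESeq2 adjusted p = 0.00133) and 0.18 with shRNA2# (SE 0.12, edgeR adjusted p = 0.339). In TPM, the shRNA2# libraries were at 597, 543 and 519 and overlapped the controls.

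Ugt2b5 was at 453, 546 and 414 CPM in NC + CCl4, at 710 (replicate 1), 857 and 572 CPM in lnc-Helf-sh1# + CCl4 and at 469, 527 and 585 CPM in lnc-Helf-sh2# + CCl4. All shRNA1# libraries exceeded the highest control in CPM, the third by a small margin, and in TPM that library, at 538, lay below the highest control, at 552. With shRNA1# it differed from the controls by 0.60 on the log2 scale (SE 0.18, edgeR adjusted p = 0.178, DESeq2 adjusted p = 0.0494). Of its 50-base words, 34.8% occur in Ugt2b38, which had at most 25.2 counts.

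Ugt2b1, whose rat counterpart conjugates morphine and bisphenol A, was at 348, 385 and 308 CPM in NC + CCl4, at 451, 532 and 473 CPM in lnc-Helf-sh1# + CCl4 and at 239, 386 and 472 CPM in lnc-Helf-sh2# + CCl4. The shRNA1# libraries lay above the controls, by 0.48 on the log2 scale (SE 0.22, edgeR adjusted p = 0.284). Ugt2b34 was at 477, 585 and 460 CPM in NC + CCl4, at 673, 721 and 532 CPM in lnc-Helf-sh1# + CCl4 and at 370.0, 588 and 548 CPM in lnc-Helf-sh2# + CCl4, and its groups overlapped. Ugt2b37 stayed at or under 2.04 CPM in all libraries. The low shRNA2# value of both Ugt2b1 and Ugt2b34 came from shRNA2# replicate 1.

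The sum of the Ugt2b genes was 2016, 2317 and 1860 CPM in NC + CCl4, 2917, 3319 and 2623 CPM in lnc-Helf-sh1# + CCl4 and 1889, 2328 and 2466 CPM in lnc-Helf-sh2# + CCl4. It lay above the controls in all shRNA1# libraries, with a sum 0.52 higher on the log2 scale (SE 0.17, edgeR adjusted p = 0.190), and overlapped them with shRNA2# (0.11, SE 0.17). On log2(TPM + 1), 0 of the 6 tested Ugt2b members were positive with shRNA2#, against 4 of 6 on the TMM scale.

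The Ugt2b and Ugt1a shares of the UGT pool, which do not depend on the scaling between libraries, were separated from those of the controls in both shRNA groups. The Ugt2b genes provided 60.8%, 63.8% and 60.7% of the UGT TPM in NC + CCl4, 71.3%, 71.3% and 65.4% in lnc-Helf-sh1# + CCl4 and 69.0%, 69.7% and 66.6% in lnc-Helf-sh2# + CCl4. The Ugt1a genes provided 23.4%, 21.1% and 25.2% in NC + CCl4, 17.1%, 16.6% and 20.1% in lnc-Helf-sh1# + CCl4 and 17.9%, 17.4% and 20.96% in lnc-Helf-sh2# + CCl4. Neither share overlapped between the controls and either shRNA group. A two-sided exact permutation test of 3 against 3 libraries gives p = 0.1, its smallest value, whenever the groups do not overlap. It therefore adds nothing to the lack of overlap, and both comparisons share the 3 controls. The margin was narrow for Ugt1a, at 21.1% in the lowest control and 20.96% in the highest shRNA2# library. Both shares are parts of the same total, so a higher Ugt2b share leaves less for Ugt1a, and their separations are not independent. The other families did not separate in both shRNA groups. The Ugt2a share of the UGT TPM overlapped the controls in both, as did the Sult1 and Sult2 shares of the SULT TPM. The Ugt3a share overlapped the controls with shRNA1# and lay below them with shRNA2#.

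Ugt2a3, whose human counterpart conjugates bile acids, was at 145, 151 and 151 CPM in NC + CCl4, at 185, 208 and 164 CPM in lnc-Helf-sh1# + CCl4 and at 130, 159 and 155 CPM in lnc-Helf-sh2# + CCl4. The shRNA1# libraries lay above the other 6 in CPM, but in TPM replicate 3, at 137, fell under the highest control, at 138. Its fold change was 0.32 on the log2 scale with shRNA1# (SE 0.13, edgeR adjusted p = 0.234) and -0.01 with shRNA2# (95% interval -0.29 to 0.27).

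Ugt3a1 belongs to a subfamily that uses other sugars than glucuronic acid, N-acetylglucosamine in the case of human UGT3A1. It was at 72.8, 70.2 and 52.7 CPM in NC + CCl4, at 47.7, 58.6 and 72.6 CPM in lnc-Helf-sh1# + CCl4 and at 42.7, 49.1 and 45.0 CPM in lnc-Helf-sh2# + CCl4. All shRNA2# libraries lay under the lowest control. The shRNA1# libraries overlapped the controls, with replicate 1 below the lowest of them. With shRNA2# the log2 fold change was -0.52 (SE 0.17, edgeR adjusted p = 0.0778, DESeq2 adjusted p = 0.0444) and with shRNA1# -0.13 (95% interval -0.50 to 0.25). Ugt3a2 was at 212 to 299 CPM in NC + CCl4, 219 to 316 CPM in lnc-Helf-sh1# + CCl4 and 183 to 241 CPM in lnc-Helf-sh2# + CCl4, with log2 fold changes of 0.03 and -0.35.

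Among the sulfotransferases, the hydroxysteroid genes Sult2a1 and Sult2a2, which conjugate dehydroepiandrosterone and bile acids and are female-predominant in mouse liver, were low in these male livers. Sult2a2 was at 1.29, 1.18 and 1.31 CPM in NC + CCl4, from 21 to 23 counts a library, at 0.627, 0.370 and 0.858 CPM in lnc-Helf-sh1# + CCl4 and at 0.554, 0.257 and 0.0693 CPM in lnc-Helf-sh2# + CCl4, from 8, 4 and 1 counts. The 3 control libraries were close together and above all 6 shRNA libraries. It fell with shRNA2# by 2.08 on the log2 scale (SE 0.54, edgeR adjusted p = 0.0464), and with shRNA1# the log2 fold change was -1.02 (SE 0.48, edgeR adjusted p = 0.298). When single libraries were left out, the log2 fold change with shRNA2# ranged from -2.89 (without shRNA2# replicate 1) to -1.64 (without shRNA2# replicate 3). The call held without shRNA1# replicate 3 or shRNA2# replicate 1, and was lost without any 1 of the other 7 libraries (adjusted p = 0.0651 to 0.130).

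Of the 50-base words of Sult2a2, 62.1% occur in another gene and 41.3% in Sult2a1. Sult2a1 was at 1.76, 1.29 and 1.94 CPM in NC + CCl4, at 1.07, 0.370 and 0.981 CPM in lnc-Helf-sh1# + CCl4 and at 1.32, 0.450 and 0.762 CPM in lnc-Helf-sh2# + CCl4. In CPM, the shRNA1# libraries lay below the controls, and 1 shRNA2# library reached the lowest of them. The log2 fold changes were -1.04 (SE 0.46, edgeR adjusted p = 0.272) and -0.98 (SE 0.46, edgeR adjusted p = 0.177).

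Sult2a8, the most abundant gene of that family, was at 124 to 202 CPM in NC + CCl4, 80.2 to 147 CPM in lnc-Helf-sh1# + CCl4 and 34.1 to 143 CPM in lnc-Helf-sh2# + CCl4. Its log2 fold changes were -0.48 (SE 0.43) and -0.91 (SE 0.43, edgeR adjusted p = 0.180), and the lowest value was in shRNA2# replicate 1. Sult2a7 stayed at or under 2.08 CPM in all libraries. Summed over the Sult2a genes, the log2 fold changes were -0.48 and -0.91 (edgeR adjusted p = 0.564 and 0.171).

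Sult1a1 was at 430 (replicate 1), 316 and 359 CPM in NC + CCl4, at 303, 283 and 408 CPM in lnc-Helf-sh1# + CCl4 and at 330 (replicate 1), 416 and 307 CPM in lnc-Helf-sh2# + CCl4. The groups overlapped throughout. The log2 fold changes were -0.15 (95% interval -0.57 to 0.26) and -0.07 (95% interval -0.49 to 0.35).

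Sult1d1 was steady within groups except for 1 library, at 167, 165 and 166 CPM in NC + CCl4, at 192, 186 and 189 CPM in lnc-Helf-sh1# + CCl4 and at 90.4, 145 and 159 CPM in lnc-Helf-sh2# + CCl4. The 3 groups were fully separated, with shRNA1# above and shRNA2# below the controls. In TPM, the shRNA1# libraries, at 132, 130 and 138, overlapped the controls, at 126, 130 and 133. The log2 fold changes of 0.19 (SE 0.18) and -0.34 (SE 0.18) against the controls had adjusted p values of 0.602 and 0.225 from edgeR. The shRNAs differed from each other by -0.53 (SE 0.18, edgeR adjusted p = 0.440), and without shRNA2# replicate 1, the low library, by -0.32.

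Sult1b1 was at 32.9, 32.0 and 26.3 CPM in NC + CCl4, at 32.2, 39.4 and 34.6 CPM in lnc-Helf-sh1# + CCl4 and at 24.4, 27.8 and 27.4 CPM in lnc-Helf-sh2# + CCl4. In CPM, the shRNA groups did not overlap each other, and both overlapped the controls. In TPM, the shRNA2# libraries, at 29.7, 29.4 and 26.3, lay below the controls, at 38.9, 41.8 and 33.9. The log2 fold change of shRNA2# against shRNA1# was -0.41 (SE 0.12, edgeR adjusted p = 0.440). Sult1c2 was at 2.82, 3.14 and 4.00 CPM in NC + CCl4, at 3.82, 5.37 and 3.06 CPM in lnc-Helf-sh1# + CCl4 and at 3.39, 2.12 and 1.18 CPM in lnc-Helf-sh2# + CCl4, with overlap between all groups. Sult1e1, the oestrogen sulfotransferase, was at 0.554 to 3.29 CPM in 8 libraries and at 6.74 CPM in shRNA1# replicate 3, the library that was also highest for Ugt1a9.

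**Figure D4:**
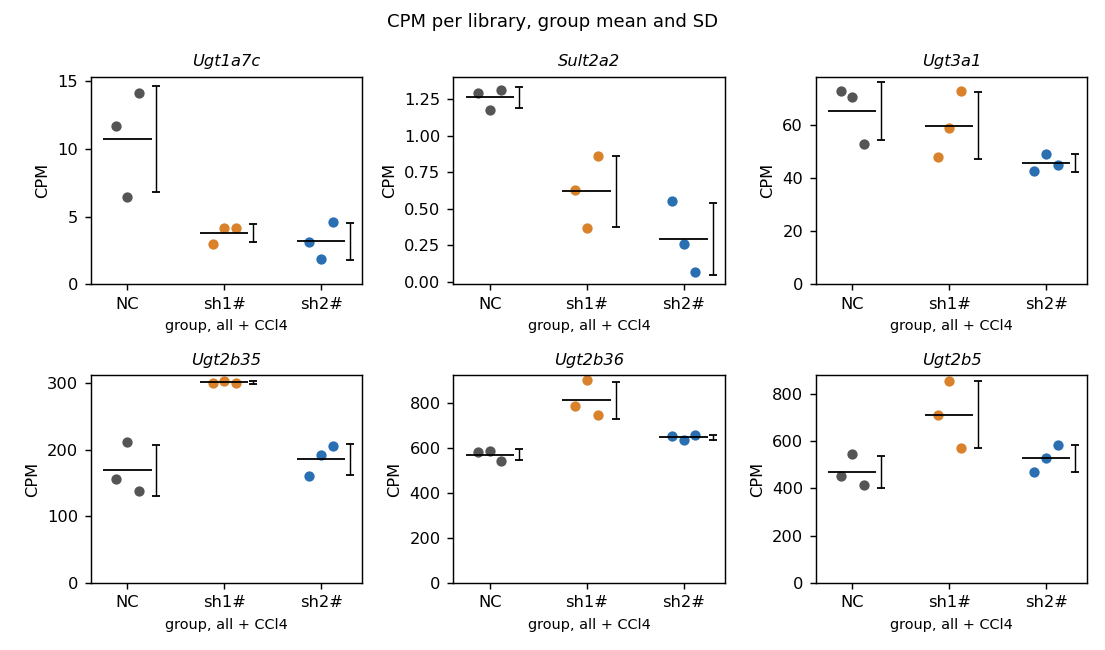
CPM of Ugt1a7c, Sult2a2, Ugt3a1, Ugt2b35, Ugt2b36 and Ugt2b5 in each library (points), with the mean of each group (horizontal line) and its SD (bar, n = 3). Ugt1a7c and Sult2a2 are lower in all 6 shRNA libraries than in any control, Ugt3a1 is lower with shRNA2#, and the 3 Ugt2b genes are highest with shRNA1#.

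The supply of both cofactors was described from fixed gene lists. Of the 4 genes for UDP-glucuronic acid, Ugp2 and Ugdh, which make it, and Slc35d1 and Slc35d2, which carry nucleotide sugars across membranes, 0 passed edgeR's threshold with either shRNA, and in 4 of the 4 the lnc-Helf-sh1# + CCl4 libraries lay above the controls, as in 15.6% of all genes. Ugdh was at 193, 243 and 197 CPM in NC + CCl4, at 356, 401 and 302 CPM in lnc-Helf-sh1# + CCl4 and at 199, 247 and 292 CPM in lnc-Helf-sh2# + CCl4. With shRNA1# its log2 fold change was 0.74 (SE 0.17, edgeR adjusted p = 0.144, DESeq2 adjusted p = 0.00951). Slc35d1 was higher than in every control in all 6 shRNA libraries, with log2 fold changes of 0.46 and 0.48 (edgeR adjusted p = 0.178 and 0.0552). Slc35d2 was at 0.30 with shRNA2# (edgeR adjusted p = 0.158). The median of the 4 genes was 0.49 with shRNA1# and 0.26 with shRNA2#.

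Of the 7 genes for the supply of PAPS and the removal of its product, 0 passed with shRNA1# and 1 rose with shRNA2#. Over all genes tested, edgeR called 4.71% higher with shRNA2#. Papss1, a PAPS synthase, was at 11.4, 15.5 and 10.9 CPM in NC + CCl4, at 15.7, 15.4 and 14.7 CPM in lnc-Helf-sh1# + CCl4 and at 18.1, 16.9 and 25.1 CPM in lnc-Helf-sh2# + CCl4. The shRNA2# libraries lay above all others, and Papss1 rose by 0.67 on the log2 scale (SE 0.18, edgeR adjusted p = 0.0495), a call that was kept without shRNA1# replicate 3, shRNA2# replicate 1 or NC + CCl4 replicate 2 and lost without any 1 of the other 6 libraries (adjusted p up to 0.152). The more abundant synthase Papss2 was at 185, 185 and 264 CPM in NC + CCl4, at 209, 222 and 184 CPM in lnc-Helf-sh1# + CCl4 and at 148, 162 and 153 CPM in lnc-Helf-sh2# + CCl4. It lay below all controls with shRNA2#, by -0.45 on the log2 scale (SE 0.16, edgeR adjusted p = 0.0855). Impad1, a phosphatase for the product PAP, was likewise below all controls with shRNA2# (log2 fold change -0.48, edgeR adjusted p = 0.0758). Slc35b2, a PAPS carrier, and Bpnt1, another phosphatase for PAP, had log2 fold changes of 0.22 and 0.24 with shRNA1# (edgeR adjusted p = 0.289 and 0.429).

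Of 8 transporters that move conjugates across the hepatocyte membrane, 0 passed with shRNA1# and 2 fell with shRNA2#, against 3.89% of all genes called lower. Abcc3, which exports glucuronides into blood, was at 258, 232 and 235 CPM in NC + CCl4, at 145, 187 and 276 CPM in lnc-Helf-sh1# + CCl4 and at 121, 133 and 150 CPM (replicate 3) in lnc-Helf-sh2# + CCl4. The shRNA2# libraries lay below all controls, and Abcc3 fell by 0.84 on the log2 scale (SE 0.21, edgeR adjusted p = 0.0423). The uptake carrier Slco1a4 was at 68.2, 63.2 and 64.5 CPM in NC + CCl4, at 70.0, 79.7 and 56.0 CPM in lnc-Helf-sh1# + CCl4 and at 29.4, 50.3 and 27.5 CPM in lnc-Helf-sh2# + CCl4. It fell by 0.87 on the log2 scale (SE 0.22, edgeR adjusted p = 0.0438), below every other library. Leaving out single libraries, Abcc3 kept its call only without shRNA1# replicate 1 or 3 and Slco1a4 only without shRNA1# replicate 3, with adjusted p values of up to 0.115 and 0.116 in edgeR. Abcg2 and Slco1a1, the transporters with the smallest p with shRNA1#, had log2 fold changes of 0.42 and 1.22 (edgeR adjusted p = 0.243 and 0.340).

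**Figure D5:**
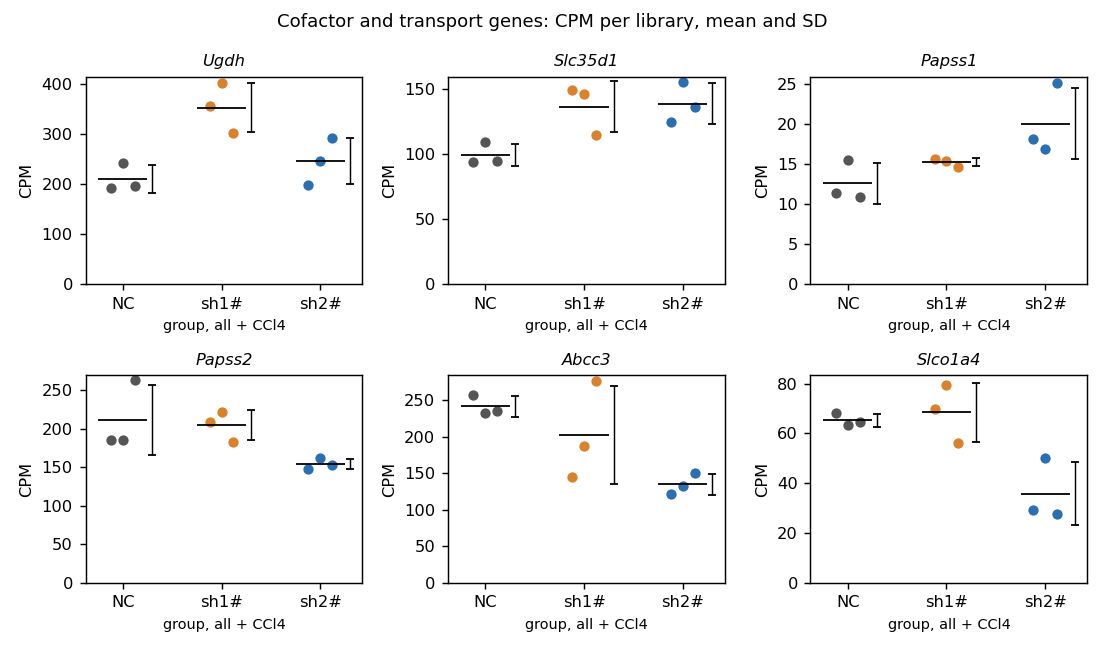
CPM of Ugdh, Slc35d1, Papss1, Papss2, Abcc3 and Slco1a4 in each library (points), with the mean of each group (horizontal line) and its SD (bar, n = 3). Ugdh is highest with shRNA1#, whereas Papss1 is highest and Papss2, Abcc3 and Slco1a4 are lowest with shRNA2#.

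Of 20 regulators of these genes, 0 passed with either shRNA, with medians of 0.04 and 0.07. Nr1i3, the receptor CAR, was at 114 (replicate 1), 75.5 and 115 CPM in NC + CCl4, at 63.1, 72.1 and 58.6 CPM in lnc-Helf-sh1# + CCl4 and at 78.7, 68.6 and 46.3 CPM in lnc-Helf-sh2# + CCl4. The shRNA1# libraries lay below all controls, and the log2 fold changes were -0.65 with both shRNAs (edgeR adjusted p = 0.189 and 0.0772). Arnt with shRNA1# (-0.36, edgeR adjusted p = 0.190) and Foxa3 with shRNA2# (0.59, edgeR adjusted p = 0.0613) were the other regulators among the 2 smallest p.

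Of 15 genes known as targets of these regulators, 0 passed with either shRNA. Cyp4a14, a PPAR alpha target, was at 286, 137 and 366 CPM in NC + CCl4, at 6.27, 9.63 and 11.3 CPM in lnc-Helf-sh1# + CCl4 and at 97.6, 75.4 and 5.68 CPM in lnc-Helf-sh2# + CCl4, below the controls in all 6 (log2 fold changes -4.86 and -2.14, edgeR adjusted p = 0.111 and 0.0894). Cyp2c55, a target of CAR and PXR, was higher in all 6, with log2 fold changes of 1.91 and 0.77 (edgeR adjusted p = 0.0783 and 0.102).

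Of 3 measured genes that release conjugates, 0 passed. Gusb, the beta-glucuronidase, had log2 fold changes of -0.28 and -0.25 (edgeR adjusted p = 0.252 and 0.180). Arsa, an arylsulfatase, had 0.28 (edgeR adjusted p = 0.434) with shRNA1#, and Abhd10, which acts on acyl glucuronides in humans, 0.46 (edgeR adjusted p = 0.236) with shRNA2#. Of 12 other conjugating enzymes, such as methyl and acyl transferases, 0 passed, with medians of 0.28 and 0.10. Among them Hnmt (0.43) and Inmt (0.61) had the smallest p with shRNA1#, and Glyat (0.32) and Nnmt (2.02) with shRNA2#, with adjusted p values of 0.135 to 0.476 from edgeR.

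Genes of several marker lists fell in the same livers with shRNA2#, and their part in the values of the UGT and SULT genes was not tested. Over all genes tested, edgeR called 3.89% lower with shRNA2#. The 7 tested hepatocyte markers had 0 calls and medians of 0.18 and 0.47, and the 2 with the smallest p, Ttr and Fgb, were at 0.52 and 0.67 with shRNA1#. Of 9 pericentral hepatocyte genes, 2 fell with shRNA2#, Glul by 0.86 and Cyp2c37 by 1.46 on the log2 scale (edgeR adjusted p = 0.0411 and 0.0309), and the summed level was 5132 to 6164 CPM in NC + CCl4, 3445 to 4634 CPM in lnc-Helf-sh1# + CCl4 and 2605 to 4614 CPM in lnc-Helf-sh2# + CCl4. Of 9 periportal genes 0 passed, with medians of 0.20 and 0.09, and the smallest p belonged to Sds (0.59) and Ass1 (0.62) with shRNA1# and to Pck1 (-0.92) and Ass1 (0.54) with shRNA2#, with edgeR adjusted p values of 0.0683 to 0.374.

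Of 11 macrophage and monocyte markers, 5 fell with shRNA2# in edgeR, Csf1r, Lyz2, Ccr2, Itgam and Itgb2, where 3.89% of all genes were called lower. The summed level of the 11 was 796 to 1380 CPM in NC + CCl4, 456 to 745 CPM in lnc-Helf-sh1# + CCl4 and 453 to 489 CPM in lnc-Helf-sh2# + CCl4. Of 11 stellate cell and myofibroblast markers, 2 fell with shRNA2#, Dcn and Pdgfra, with summed levels of 1042 to 1733 CPM in NC + CCl4, 567 to 1032 CPM in lnc-Helf-sh1# + CCl4 and 702 to 1348 CPM in lnc-Helf-sh2# + CCl4. When single libraries were left out, these calls ranged from 0 to 8 for the macrophage list and from 0 to 2 for the stellate and pericentral lists. Among 5 tested cholangiocyte, 5 tested lymphocyte and 7 endothelial markers, 0 passed, and shRNA2# replicate 1, the library with low Sult2a8 and Sult1d1, had a summed cholangiocyte level of 1251 CPM against 183 to 455 CPM elsewhere, of which 1233 CPM was Spp1.

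Sex-biased liver genes were listed because several SULT and UGT genes differ between male and female mice. Of 10 male-biased genes 0 passed, with medians of 0.66 and 0.48. The smallest p there belonged to Mup20 (0.64) and Cyp4a12a (0.81) with shRNA1# and to Cyp2u1 (1.15) and Mup20 (0.56) with shRNA2#, with edgeR adjusted p values of 0.0932 to 0.320. Of 7 tested female-biased genes 0 passed, with medians of -0.53 and -1.003. Acot3, one of the female-biased genes, had log2 fold changes of -1.44 and -1.003 (edgeR adjusted p = 0.204 in both). NC + CCl4 replicate 3 stood apart from the other controls in both lists, with a summed level of 1486 CPM for the male-biased genes against 2258 and 2617 CPM and of 185 CPM for the female-biased genes against 77.2 and 64.4 CPM. Among the shRNA libraries the female-biased sum was 34.3 to 62.3 CPM except in shRNA2# replicate 1, at 135 CPM. The part of these libraries in the medians was not tested.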

How the data were processed

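Liver RNA of 9 mice was sequenced as single-end reads of 50 bases on the BGIseq500 platform, 1 library per mouse by the labels. The authors deposited expected counts, TPM and FPKM per gene in 1 table. The expected counts are RSEM estimates that are not normalized (8.15% of all values and 26.6% of those of the members are not whole), the TPM deposited by the authors have the same sum in every library, and the FPKM deposited by the authors were not used. BWA, Bowtie2 and RSEM appear in the submitters' notes with no version, as does hg19, a human build, for what are mouse genes. No coordinates were therefore taken from the table.

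After rounding, the expected counts of 13059 genes that passed filterByExpr (minimum count 10) were scaled by TMM factors of 0.882 to 1.07 and entered edgeR 4.0.16 (quasi-likelihood test, R 4.3.3) in 1 fit of all 9 libraries without covariates. A gene was called when its p, adjusted over all 13059 genes (Benjamini-Hochberg), was under 0.05. The biological coefficient of variation was 19.9%. The labels call the libraries biological replicates. The same numbered replicates did not deviate together (correlations of -0.42 to 0.22), and none of the 9 pairs of libraries within groups was alike within sampling noise. Alternatives were DESeq2 1.42.0, RLE and upper quartile factors, other count filters, fits of 6 libraries, a replicate block, limma 3.58.1 on log2 TPM with pseudocounts of 1 and 0.1, summed gene clusters and omission of single libraries. The fits were tested on simulated counts.

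The members and gene lists were chosen with earlier results of these data known. Values per library are given for members with an unadjusted p under 0.05 in any comparison, those without overlap against the controls and the 5 highest in TPM, and of each list for genes that were called or had the 2 smallest p. Of the genes so chosen, not every result is reported here. Shared words of 50 bases were counted over GENCODE M21 coding transcripts, and promoters came from RefSeq.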

Additional observations from a re-analysis of the deposited data

How the results depend on the processing

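The count of members called was 0 with shRNA1# in edgeR under every other setting tried and 4 in DESeq2. With shRNA2# it was 2, and 3 in DESeq2. It was 1 without a filter on low counts, with at least 50 counts in 3 libraries or with only the 6 libraries compared, in each case Ugt1a7c. It was 0 with the Ugt1a, Ugt2b, Sult2a and Sult3a rows summed and 6 with limma on log2(TPM + 1) or log2(TPM + 0.1), all lower (Sult1b1, Sult1d1, Sult2a2, Ugt1a1, Ugt1a7c and Ugt3a1). Leaving out single libraries gave 0 to 3. It was 0 without NC + CCl4 replicate 1 or 3, shRNA1# replicate 2 or shRNA2# replicate 2, where edgeR called 0, 0, 171 and 0 of all genes, and 3 without shRNA1# replicate 3 (with Ugt1a9 lower) or shRNA2# replicate 1 (with Sult5a1 higher, which then passed the filter). Between the shRNAs it was 0 and, in DESeq2, 1. With the replicate number as a block, 0 members and 0 genes of any kind were called in any comparison, and same-numbered samples share only a number. Fewer samples were used in the omissions, and the cause of the other differences was not tested. For the 20 pairs of a member and a comparison with an unadjusted p under 0.05 in edgeR that were recomputed under the alternatives, 0 values reversed direction, 339 kept direction and call, 11 gained and 15 lost a call. Over all 25 tested members, leaving out single libraries gave log2 fold changes of both signs for 6 members with shRNA1#, 7 with shRNA2# and 8 between the shRNAs. With 3 mice a group and a few counts per library for Sult2a2, depth limits what can be said of low members.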
